A study of Mus musculus with 8 samples.

Results

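PCGF5 is a RING finger subunit of a variant Polycomb repressive complex 1, one of the complexes that place ubiquitin on histone H2A and hold developmental genes silent. Mouse embryonic stem cells (mESCs) moved into N2B27, a serum-free medium without the self-renewal factors, lose the pluripotency programme and take up a neural one within days, passing through a stage at which Notch, ephrin, hedgehog and retinoic acid genes are switched on. Undifferentiated mESCs also transcribe a set of germline genes, and they respond only weakly to interferon.

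The comparison described here was that of Pcgf5-/- with wild-type cells after 6 days in N2B27, and it used 4 of the 8 samples of the series, 2 of each genotype. All came from MPI-II, an mESC line of 129S2/SvPas origin that was kept on feeder cells in serum with LIF and the 2i inhibitors before differentiation. The Pcgf5-/- cells had been made with TALENs against the second exon and drug-resistance cassettes, and were grown from single colonies that survived puromycin and G418, so a property of a picked clone and an effect of Pcgf5 cannot be told apart. The 4 day 0 samples, 2 of each genotype, were used for the shared spread of the fit and for levels beside those of day 6. The samples of a group are described as independent biological samples, with no culture or clone named, and p-values measure the spread between them. An exact permutation test of 2 against 2 samples cannot give a two-sided p under 0.333, so single genes rest on the fit across all genes. PolyA+ RNA was sequenced, and a gene's level was given as FPKM, fragments scaled to transcript length and to the size of the library. Fold changes below are Pcgf5-/- over wild type on the log2(FPKM + 1) scale with their standard errors, and a gene is said to have risen or fallen where limma's test gave a Benjamini-Hochberg adjusted p under 0.05.

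The targeted gene was low in both samples labelled Pcgf5-/-. Pcgf5 (chr19:36453557-36530694, mm9) was at 9.16 and 5.06 FPKM in the wild-type samples and at 0.669 and 0.457 FPKM in the Pcgf5-/- samples at day 6. The groups did not overlap, and Pcgf5 fell by 2.33 ± 0.28 (adjusted p = 0.00421). Transcripts of neural progenitors were present in both genotypes. Nes, an intermediate filament gene of neural progenitors, stood at 58.2 and 62.3 FPKM in the wild-type pair, against 24.0 and 20.0 FPKM in the Pcgf5-/- pair. Pou5f1, which encodes the pluripotency factor OCT4, stood at 93.8 and 36.2 FPKM in the wild-type pair, against 254 and 228 FPKM in the Pcgf5-/- pair. The wild-type samples thus still held pluripotency transcripts at day 6, more in replicate 1 than in replicate 2, and Nanog behaved likewise at 43.0 and 22.2 FPKM against 144 and 139 FPKM. In bulk RNA, fewer cells of a type and less RNA per cell cannot be told apart, here and in all that follows.

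At day 6, 2197 of 13214 tested genes differed between the genotypes in limma's test, 16.6% of those tested. Of these, 1265 genes (9.57%) rose and 932 genes (7.05%) fell, while 4315 passed the threshold before adjustment. At day 0, the same fit called 44 genes (0.333%). The number of calls depended on having both samples of each genotype. It was 297 genes without Pcgf5-/- replicate 1, 921 without Pcgf5-/- replicate 2, 1173 without wild-type replicate 1 and 502 without wild-type replicate 2. The counts of the main groups are therefore given with those of these 4 fits, in which a lone sample is assumed to vary like the other groups. Total reads are not given with FPKM, and the smallest steps between low values put the other 3 day 6 libraries at 0.893, 0.933 and 0.769 of the depth of wild-type replicate 1. Replicates correlated at r = 0.973 and 0.974 across tested genes, and samples of different genotype at 0.913 to 0.95.

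Beside lists of neural, pluripotency and TGF-beta genes, 39 function groups were counted. Genes on those lists were not removed from the groups, so that Crabp1, Crabp2, Fabp7 and Fgf4, for example, were counted in both. The groups with the highest shares of rising members were germline and meiosis genes, interferon and antigen presentation genes, and glutathione and redox genes. Eph receptors and ephrins, hedgehog genes and Notch genes had the highest shares of falling members. Wnt, FGF and imprinted genes included members called in each direction.

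**Figure D1:**
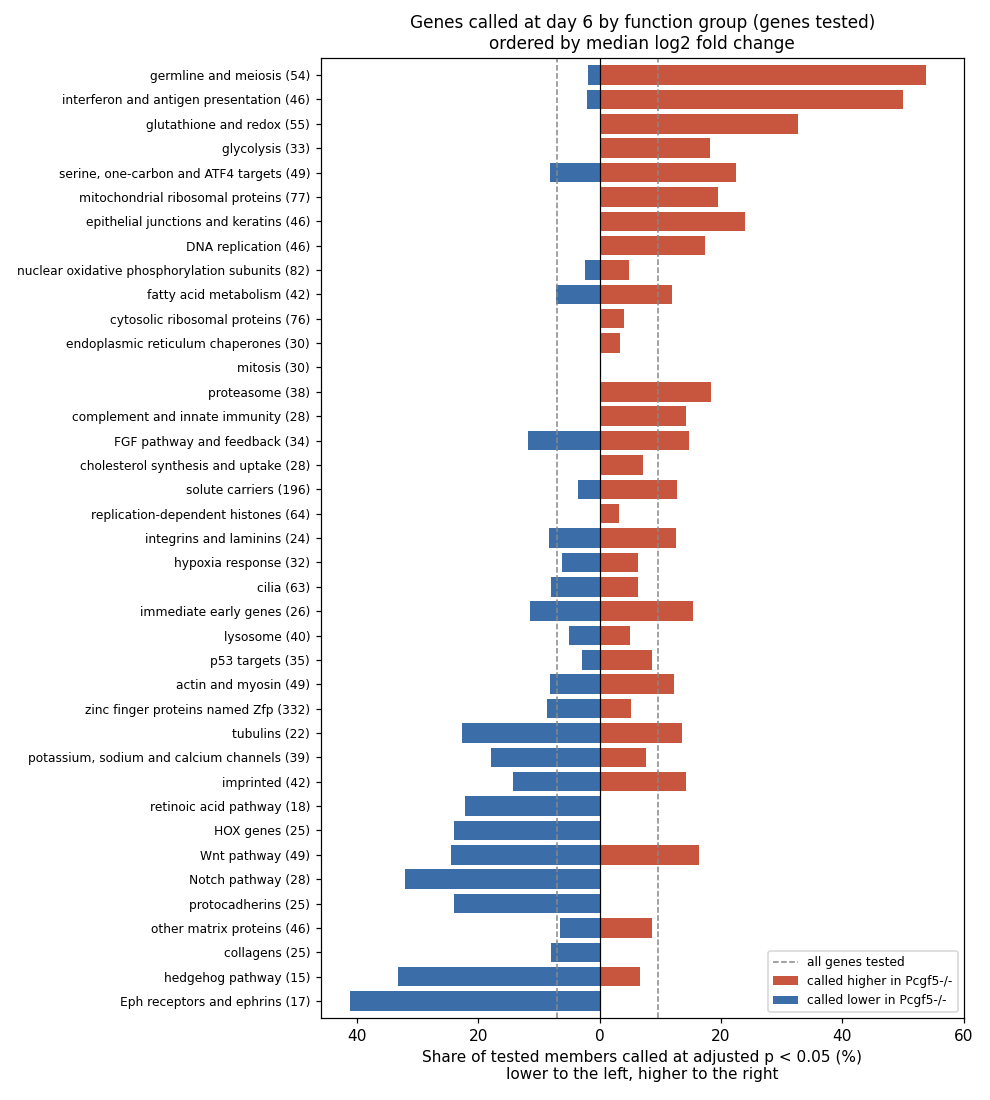
Share of the tested members of each function group that were called higher (right, red) or lower (left, blue) in Pcgf5-/- cells at day 6, with the number of genes tested in brackets and groups ordered by median log2 fold change. Dashed lines mark the shares over all genes tested, 9.57% higher and 7.05% lower; germline genes reach 53.7% higher and Eph receptors and ephrins 41.2% lower.

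Germline and meiosis genes rose most often. Of 54 tested members, 29 rose and 1 fell, and the median fold change of the group was 1.16, against 0.02 over all genes tested. Leaving out 1 sample at a time, 6 members were called higher without Pcgf5-/- replicate 1, 17 without Pcgf5-/- replicate 2, 30 without wild-type replicate 1 and 9 without wild-type replicate 2. Smc1b, a cohesin subunit used in meiosis, was at 3.82 and 2.11 FPKM in the wild-type pair, against 27.9 and 17.5 FPKM in the Pcgf5-/- pair. Its fold change was 2.58 ± 0.41 (adjusted p = 0.00852). Tuba3a, a testis-expressed alpha-tubulin, was at 9.61 and 3.71 FPKM against 52.8 and 42.5 FPKM, and Cyct, the testis cytochrome c, at 7.85 and 3.25 FPKM against 37.4 and 35.5 FPKM. In each of these 3 genes both Pcgf5-/- samples lay above both wild-type samples, a separation that the rule for naming them required. Samples lay apart in one direction or the other for 62.2% of all tested genes. Tuba3a and its near-identical paralog Tuba3b (2.11 ± 0.39, adjusted p = 0.0122) can share reads, so their split is uncertain, and both lie on chromosome 6, which was higher as a whole.

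The rising germline genes covered several stages. Sohlh2, a transcription factor of early germ cells, rose by 2.35 ± 0.42, from 3.93 and 0.778 FPKM to 16.7 and 11.8 FPKM. Prdm14 and Prdm1, regulators of primordial germ cell fate, rose by 1.91 ± 0.32 and 1.18 ± 0.23, and Dazl, a germ cell RNA-binding protein, by 1.68 ± 0.29. Of the meiotic chromosome axis and recombination genes, Hormad1 rose by 2.21 ± 0.51, Dmc1 by 1.59 ± 0.22 and Tex12 by 1.39 ± 0.36. Stra8, the retinoic acid-induced gatekeeper of meiosis, was at 2.48 and 8.96 FPKM in the wild-type pair, against 12.5 and 71.2 FPKM in the Pcgf5-/- pair, and with this spread it did not pass the test (adjusted p = 0.0874). Tdrkh, which serves the piRNA pathway, fell by 0.8 ± 0.19.

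The germline levels at day 6 were also set beside those at day 0, as a description. The group's median level on the log2(FPKM + 1) scale was 2.21 (wild type) and 2.34 (Pcgf5-/-) at day 0, then 1.36 (wild type) and 2.69 (Pcgf5-/-) at day 6. For 9 of the 29 rising genes both Pcgf5-/- day 6 samples exceeded all 6 other samples of the series, against 417 of the 1265 rising genes (33.0%) and 11% of all genes tested. Dmc1 was among them, at 16.3 and 13.2 FPKM after day 0 means of 1.39 FPKM (wild type) and 2.4 FPKM (Pcgf5-/-). Genes of the pluripotency list had a median level of 5.82 and 5.7 at day 0 and of 3.4 (wild type) and 4.72 (Pcgf5-/-) at day 6.

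Many germline promoters carry the E-box CACGTG, and those of Hormad1 and Fkbp6, which rose by 2.21 and 1.58, hold it at a pair of places each. The sequences are shown so that these elements can be read in place. They are RefSeq promoters on GRCm38.p6, from 250 bases before to 50 after a start site, written 5′ to 3′ on the gene's strand, with the E-box in capitals. Hormad1 is at chr3:95559427-95559726 on the plus strand and Fkbp6 at chr5:135349995-135350294 on the minus strand.
Hormad1: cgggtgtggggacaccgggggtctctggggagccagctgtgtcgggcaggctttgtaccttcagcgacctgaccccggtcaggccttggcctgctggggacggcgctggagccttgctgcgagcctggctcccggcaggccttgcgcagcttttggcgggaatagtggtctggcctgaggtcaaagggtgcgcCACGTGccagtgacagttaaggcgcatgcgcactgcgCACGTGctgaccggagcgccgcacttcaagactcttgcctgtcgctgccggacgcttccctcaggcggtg
Fkbp6: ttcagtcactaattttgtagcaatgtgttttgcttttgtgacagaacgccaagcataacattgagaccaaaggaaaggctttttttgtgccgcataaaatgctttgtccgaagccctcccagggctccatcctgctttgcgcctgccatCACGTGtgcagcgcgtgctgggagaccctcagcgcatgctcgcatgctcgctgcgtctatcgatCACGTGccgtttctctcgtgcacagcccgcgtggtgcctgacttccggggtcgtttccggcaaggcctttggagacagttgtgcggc
The E-box, a palindrome that reads alike on both strands, was found in 7 of 31 promoters (22.6%) of the rising germline genes, in 11 of 29 promoters (37.9%) of the other tested germline genes, and in 7.15% of all 32851 promoters of this length. Among promoters of tested genes the share was 9.93%. A gene can have several promoters, and the 7 belonged to 5 of 26 rising genes with a promoter. RefSeq promoters were found for 48 of the 54 tested germline genes. The element was found in a smaller share of the promoters of rising genes than of the other members, and a match is a description of the sequence, not a site of binding.

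Interferon-induced and antigen presentation genes formed the second group. Of 46 tested members, 23 rose and 1 fell, with a median fold change of 0.78. Without single samples the count of rises was 2 without Pcgf5-/- replicate 1, 16 without Pcgf5-/- replicate 2, 15 without wild-type replicate 1 and 5 without wild-type replicate 2. The named gene with the largest rise was Zbp1 (chr2:173032114-173044423, mm9), a sensor of nucleic acids that can trigger cell death. Zbp1 was at 2.05 and 0.322 FPKM in the wild-type pair, against 24.0 and 8.08 FPKM in the Pcgf5-/- pair, a fold change of 2.91 ± 0.51 (adjusted p = 0.011). Gbp2, an interferon-induced GTPase, was at 2.62 and 2.76 FPKM against 25.2 and 12.3 FPKM. Pcgf5-/- replicate 1 was the higher of the pair for both genes, and both Pcgf5-/- samples lay above both wild-type samples.

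The antigen-processing genes included all 3 catalytic subunits of the immunoproteasome, the form of the proteasome that cuts peptides for MHC class I. Psmb8 was at 1.44 and 0.778 FPKM in the wild-type pair, against 8.74 and 6.72 FPKM in the Pcgf5-/- pair (2.06 ± 0.24, adjusted p = 0.00413). Psmb10 rose by 1.99 ± 0.2 and Psmb9 by 1.27 ± 0.27. Tap2, a subunit of the peptide transporter, rose by 1.35, and H2-K1, a class I heavy chain with close paralogs, by 0.7. B2m, the class I light chain, was at 48.5 and 64.2 FPKM against 39.0 and 51.5 FPKM and did not pass the test. The proteasome list as a whole held 7 rises among 38 tested genes, namely these 3 subunits, the testis form Psma8 and 3 regulatory subunits on chromosome 11, Psmd3, Psmd11 and Psmd12.

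The regulators in the group differed among themselves. Irf1, an activator of interferon and class I genes that lies on chromosome 11, itself higher as a whole, rose by 1.7 ± 0.26. Irf2, its antagonist, was at 5.09 and 6.69 FPKM in the wild-type pair, against 1.57 and 1.58 FPKM in the Pcgf5-/- pair. Irf2 fell by 1.41 ± 0.22 (adjusted p = 0.00861), and it lies in a stretch of chromosome 8 in which most genes were lower, described below. Irf9, a subunit of the factor that interferon receptors activate, gave 3.34 and 3.68 FPKM against 3.18 and 5.29 FPKM and did not pass the test (adjusted p = 0.619). Of innate immunity genes outside the interferon list, 4 of 28 rose, and these were the inflammasome genes Aim2 and Pycard and the necroptosis genes Mlkl and Ripk3. Without Pcgf5-/- replicate 1, Pcgf5-/- replicate 2 or wild-type replicate 2 the count of rises among them was 0. Aim2 stood at 6.89 and 1.46 FPKM against 24.4 and 12.8 FPKM (2.09 ± 0.53, adjusted p = 0.0328).

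Against day 0, the median level of the group was 2.08 for wild-type and 2.45 for Pcgf5-/- samples at day 0, and 1.81 and 3.06 at day 6. Of the 23 rising genes, 15 had both Pcgf5-/- day 6 samples above all 6 other samples. Zbp1, for example, had day 0 means of 0.61 and 0.281 FPKM. The share among all rising genes was 33.0%, and the difference between the shares was not tested.

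The interferon-stimulated response element, searched on both strands as GAAA followed by any 2 bases and GAAA again, is shown in the promoters of Gbp2 and Gbp3, GTPases of one family, and of Ddx58, the RNA sensor RIG-I, because these genes all rose (by 2.34, 1.78 and 1.41) and their windows hold it. Capitals mark the match, or for Gbp3 overlapping matches, on the opposite strand in each of the 3 sequences. The windows are chr3:142620413-142620712 (plus), chr3:142559794-142560093 (plus) and chr4:40239776-40240075 (minus) on GRCm38.p6.
Gbp2: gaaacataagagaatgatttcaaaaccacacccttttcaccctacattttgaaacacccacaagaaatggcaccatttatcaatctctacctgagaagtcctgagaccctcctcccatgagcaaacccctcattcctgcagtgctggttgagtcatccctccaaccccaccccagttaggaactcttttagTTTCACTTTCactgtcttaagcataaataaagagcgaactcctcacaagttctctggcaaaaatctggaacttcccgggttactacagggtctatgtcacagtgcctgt
Gbp3: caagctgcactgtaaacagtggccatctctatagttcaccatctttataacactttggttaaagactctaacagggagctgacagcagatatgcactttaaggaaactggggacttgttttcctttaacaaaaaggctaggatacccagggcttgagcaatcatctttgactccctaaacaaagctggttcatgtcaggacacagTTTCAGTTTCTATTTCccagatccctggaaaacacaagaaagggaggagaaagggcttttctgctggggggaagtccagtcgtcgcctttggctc
Ddx58: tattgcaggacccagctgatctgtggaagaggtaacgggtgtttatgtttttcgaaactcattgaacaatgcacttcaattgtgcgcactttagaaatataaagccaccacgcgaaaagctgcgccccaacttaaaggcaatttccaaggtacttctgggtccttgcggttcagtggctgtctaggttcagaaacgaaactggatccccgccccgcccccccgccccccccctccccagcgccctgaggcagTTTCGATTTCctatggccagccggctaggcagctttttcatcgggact
Of 21 RefSeq promoters of rising interferon genes, 7 held the element (33.3%), against 7 of 25 promoters (28.0%) of the other tested members and 3.44% of all promoters of this length. Among promoters of tested genes the share was 2.73%. Promoters were found for 36 of the 46 tested genes.

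Glutathione and redox genes rose without a fall that passed the test. Of 55 tested members 18 rose, the median fold change was 0.4, and 3 members were lower at an unadjusted p under the threshold of limma's test. None of the 18 was on chromosome 6 or 11. The count was 4 without Pcgf5-/- replicate 1, 6 without Pcgf5-/- replicate 2, 11 without wild-type replicate 1 and 3 without wild-type replicate 2. Nqo1, a quinone reductase, was at 15.7 and 10.5 FPKM in the wild-type pair, against 48.1 and 46.9 FPKM in the Pcgf5-/- pair. It rose by 1.81 ± 0.21 (adjusted p = 0.00393), with no overlap between the groups. Txnip, which binds and inhibits thioredoxin, went from 26.5 and 24.0 FPKM to 89.4 and 80.3 FPKM (1.71 ± 0.33, adjusted p = 0.0139). The glutathione synthesis genes Gclm and Gss rose by 0.96 and 1.11, the lipid peroxide reductase gene Gpx4 by 0.9, and Hmox1, heme oxygenase, by 1.04. Members of the Gstm cluster, of which Gstm6 rose by 1.72 ± 0.35 from under 1 FPKM, are close paralogs that share reads. Nfe2l2, which encodes the antioxidant regulator NRF2, rose by 0.68 ± 0.17. The antioxidant element, searched as TGACNNNGC on both strands, was in 2 of 22 promoters (9.09%) of the rising genes, 9 of 44 (20.5%) of the other members and 12.4% of all promoters. Among promoters of tested genes the share was 14.5%.

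**Figure D2:**
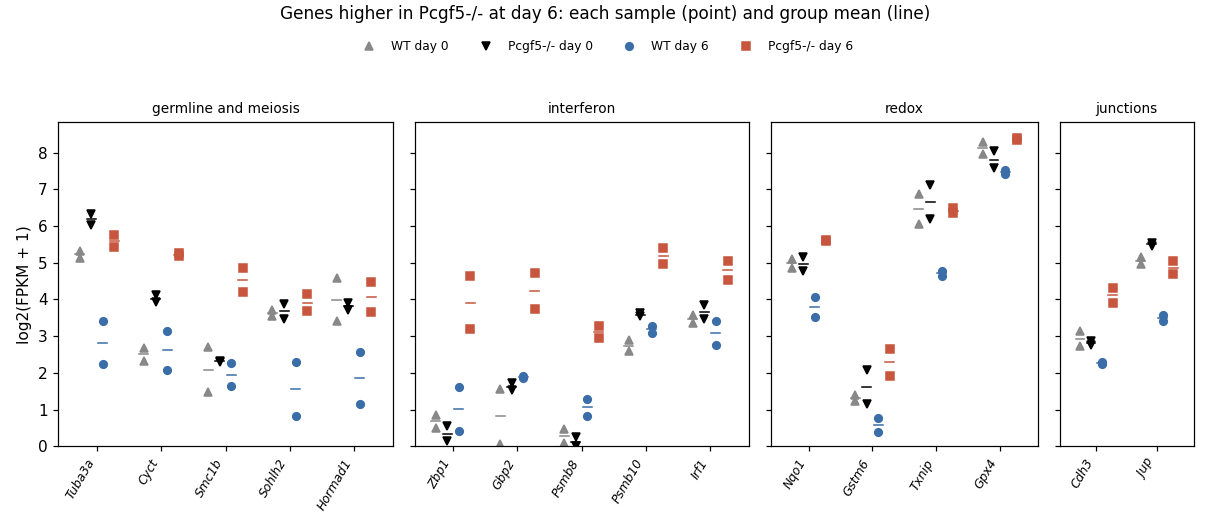
FPKM of rising genes in every sample as log2(FPKM + 1), with WT and Pcgf5-/- samples at day 0 and day 6 as points and group means as short lines. In each of the 16 genes both Pcgf5-/- samples at day 6 (red squares) lie above both wild-type samples at day 6 (blue circles). Most of these genes were named under a rule that required the samples to lie apart. Samples lay apart in one direction or the other for 62.2% of all tested genes. Zbp1 and Gbp2 at day 6 in Pcgf5-/- cells also lie above all day 0 samples.

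In metabolism, the rises were fewer and many were on chromosomes 6 and 11. Glycolysis gave 6 rises among 33 tested genes with a median of 0.33, and 3 of the 6 were outside these chromosomes. Ldhb, a lactate dehydrogenase on chromosome 6, was at 58.1 and 48.6 FPKM in the wild-type pair, against 132 and 212 FPKM in the Pcgf5-/- pair, and rose by 1.64 ± 0.25. Pfkp, which commits sugar to glycolysis, rose by 1.52 ± 0.29 and Pdk1, which holds pyruvate out of the mitochondrion, by 1.48 ± 0.35. Glycolysis rises numbered 1 without Pcgf5-/- replicate 1 or wild-type replicate 2 and 3 without either other sample. In the serine, one-carbon and ATF4 group, 11 of 49 rose (22.4%) and 4 fell (8.16%), against 9.57% and 7.05% of all genes tested. Outside chromosomes 6 and 11, 6 of 42 rose, against 7.21% of all genes tested there. Tdh, the threonine dehydrogenase on which mESCs depend, rose by 1.88 ± 0.33 to 56.5 and 41.6 FPKM, and Slc7a3, a cationic amino acid carrier, rose by 1.74 ± 0.32. The 4 falls were Mthfd2l (1.36 lower on the log2 scale) and the stress transcription factors Atf3, Atf5 and Ddit3, with fold changes of -1.34, -1.12 and -1.1. Atf4 itself, the regulator that gives the group its name, was at 89.6 and 98.8 FPKM against 115 and 136 FPKM and did not pass the test (adjusted p = 0.132). Rises in the group numbered 2 without Pcgf5-/- replicate 1 and 5 without wild-type replicate 1, the lowest and highest of the single-sample fits.

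Mitochondrial ribosomal proteins gave 15 rises among 77 tested genes, but 11 of the 15 were on chromosomes 6 and 11. Outside those chromosomes 4 of 60 rose, and with each of them centred on its own median 3 of 77 were called. Without single samples the count was 1 to 3. Among 82 subunits of oxidative phosphorylation 4 rose (4.88%) and 2 fell (2.44%), both below the 9.57% and 7.05% of all genes tested. Cox7a1, a cytochrome oxidase subunit, went from 4.61 and 4.24 FPKM to 18.4 and 29.6 FPKM (2.17 ± 0.23, adjusted p = 0.00377). Of 196 solute carriers 25 rose and 7 fell, 15 and 7 outside chromosomes 6 and 11, and the rises were 3 without Pcgf5-/- replicate 1, 12 and 14 without Pcgf5-/- replicate 2 and wild-type replicate 1, and 8 without wild-type replicate 2. Slc27a2, a fatty acid carrier, rose by 1.82 ± 0.28 and Slc15a1, a peptide carrier, by 1.65 ± 0.25, whereas Slc44a5, a choline carrier-like protein, fell by 2.03 ± 0.3. In fatty acid metabolism 5 of 42 tested genes rose (11.9%) and 3 fell (7.14%), near the shares of all genes tested. The mitochondrial genes Cpt1a and Acadm rose by 1.58 ± 0.3 and 0.94 ± 0.14. The other rises were Acacb, Acadvl on chromosome 11, and Elovl6, at 1.04, 0.71 and 0.55. Fabp7, Fabp5 and Elovl2 fell by 1.67, 0.98 and 0.79. Cpt1a and Acadm serve fatty acid oxidation, while Fabp7 and Fabp5 are lipid-binding proteins of neural progenitors.

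Epithelial junction genes rose in 11 of 46 tested members, with a median of 0.24 and 8 rises among the 38 members outside chromosomes 6 and 11. No member passed the test downwards in limma's fit, although 3 were lower at an unadjusted p under the threshold. Cdh3, P-cadherin, was at 3.88 and 3.73 FPKM in the wild-type pair, against 18.8 and 14.1 FPKM in the Pcgf5-/- pair (1.85 ± 0.21, adjusted p = 0.00393), and the groups did not overlap. Cdh1, E-cadherin, rose by 1.07 ± 0.19 and Epcam by 1.37 ± 0.23. The simple-epithelium keratins had lower means in Pcgf5-/- cells. Krt8 was at 54.3 and 117 FPKM in the wild-type pair, against 19.8 and 31.8 FPKM in the Pcgf5-/- pair, and Krt18 at 67.8 and 132 FPKM against 35.9 and 46.6 FPKM, neither passing the test (adjusted p = 0.102 and 0.0833). The count of rises was 3 without Pcgf5-/- replicate 1 or wild-type replicate 2, 4 without Pcgf5-/- replicate 2 and 7 without wild-type replicate 1.

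Signalling genes of the neural progenitor stage fell. Eph receptors and their ephrin ligands guide axons and keep cell groups apart, and 7 of 17 tested members fell, with a median of -0.69. Efna5, a membrane-anchored ligand, was at 19.4 and 23.6 FPKM in the wild-type pair, against 5.32 and 7.06 FPKM in the Pcgf5-/- pair (-1.65 ± 0.24, adjusted p = 0.00739). Efnb3 fell by 1.53 ± 0.27 and Efnb2 by 1.37 ± 0.25, and of the receptors Ephb1 fell by 1.33 ± 0.2. Efnb2 lies in the lower stretch of chromosome 8, and without it and the members on chromosomes 6 and 11, 5 of 13 fell. Single-sample fits gave 0 falls without Pcgf5-/- replicate 1, 3 without Pcgf5-/- replicate 2, 6 without wild-type replicate 1 and 2 without wild-type replicate 2, against 9 lower at an unadjusted p under the threshold with all samples in limma's test.

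Notch signalling holds neural progenitors in an undifferentiated state through ligands on neighbouring cells. Of 28 tested genes 9 fell and the median was -0.42. The ligands Dll1 and Jag1 fell by 1.39 and 0.88, and the glycosyltransferase gene Lfng, which tunes receptor response, went from 22.9 and 35.0 FPKM to 6.13 and 8.24 FPKM (-1.85 ± 0.28). Of the targets, Hes5 was at 27.9 and 28.2 FPKM in the wild-type pair, against 8.14 and 8.57 FPKM in the Pcgf5-/- pair (-1.64 ± 0.17, adjusted p = 0.00377), with each pair of replicates close together and the groups apart. Hes1, another target, was at 26.7 and 28.1 FPKM against 23.9 and 28.6 FPKM and its groups overlapped. Neither Notch1 (13.6 and 9.88 against 9.33 and 6.1 FPKM) nor Rbpj, the DNA-binding partner of the receptor (44.0 and 29.5 against 68.3 and 49.1 FPKM), passed the test. Single-sample fits called 1, 3, 4 and 3 falls without Pcgf5-/- replicate 1, Pcgf5-/- replicate 2, wild-type replicate 1 and wild-type replicate 2.

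In the hedgehog pathway 5 of 15 tested genes fell and 1 rose, with a median of -0.67. The co-receptors Boc and Gas1, which help cells bind the ligand, were among the falls. Boc was at 22.3 and 28.6 FPKM against 6.04 and 6.97 FPKM (-1.81 ± 0.23), and Gas1 at 19.2 and 25.5 FPKM against 6.41 and 7.21 FPKM (-1.57 ± 0.35). Gli3, the transcription factor that acts mainly as a repressor, fell by 1.33 ± 0.19. The other falls were Nkx6-1 and Sufu, at -1.17 and -0.67. Gli1 and Ptch1, which the pathway induces, were at 1.31 and 2.44 against 1.98 and 0.989 FPKM and at 11.1 and 7.89 against 10.5 and 4.76 FPKM, and neither passed the test. Falls numbered 2 without Pcgf5-/- replicate 2, 3 without Pcgf5-/- replicate 1 or wild-type replicate 2, and 4 without wild-type replicate 1.

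Retinoic acid genes gave 4 falls among 18, with a median of -0.21. Crabp2 and Crabp1 carry retinoic acid in the cytoplasm. Crabp1 was at 850 and 949 FPKM in the wild-type pair, against 348 and 452 FPKM in the Pcgf5-/- pair (-1.18 ± 0.24), and Crabp2 at 365 and 521 FPKM against 90.3 and 149 FPKM (-1.9 ± 0.3). Rarb, a receptor gene that is itself induced by retinoic acid, fell from 8.14 and 7.25 FPKM to 1.24 and 1.43 FPKM (-1.9 ± 0.19, adjusted p = 0.00377). The list was not uniform, with a fold change below 0 in 12 of the 18 members and above 0 in 6. Cyp26a1 was at 6.48 and 9.65 FPKM against 3.09 and 12.1 FPKM. Dhrs3 was at 2.57 and 3.4 FPKM against 6.31 and 5.25 FPKM, and neither gene passed the test. HOX genes, many of them retinoic acid targets, gave 6 falls among 25, all in the 3′ part of their clusters. These were Hoxd3, Hoxb2, Hoxd4, Hoxc4, Hoxb3 and Hoxa2, of which Hoxd3 fell furthest, from 5.4 and 2.82 FPKM to 0.368 and 0.471 FPKM (-1.8 ± 0.24). Of these 6, 3 lie on chromosomes 6 and 11, where most other genes were higher. Retinoic acid falls numbered 1 without Pcgf5-/- replicate 1 and 2 without wild-type replicate 2, and HOX falls 1 without Pcgf5-/- replicate 1, 2 without Pcgf5-/- replicate 2 and 5 without either wild-type sample.

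Wnt genes moved both ways, with 8 rises and 12 falls among 49 and a median of -0.28. Falls included the receptors Fzd3 (from 22.4 and 20.2 to 6.37 and 5.43 FPKM, -1.69 ± 0.18), Fzd1 and Fzd10 and the ligands Wnt7a and Wnt7b, at -1.5 ± 0.23 and -1.41 ± 0.27. Rises included the nuclear factors Lef1 (1.48 ± 0.33) and Tcf7 (1.15 ± 0.17) and the secreted Wnt-inactivating enzyme Notum (1.74 ± 0.37), Tcf7 and Notum being on chromosome 11. Sfrp1, a secreted antagonist in the lower stretch of chromosome 8, fell by 1.66 ± 0.2, and it was already at a day 0 mean of 15.9 FPKM in Pcgf5-/- against 36.1 FPKM in wild-type cells. In the FGF pathway 5 of 34 rose (14.7%) and 4 fell (11.8%), against 9.57% and 7.05% of all genes tested. Fgf4, an autocrine signal of mESCs, and the response genes Etv4 and Etv5 rose by 2.02 ± 0.48, 2.1 ± 0.46 and 1.63 ± 0.34. Etv4 lies on chromosome 11. Dusp6, Dusp4 and Dusp5 of the same list had fold changes of 0.56, -0.59 and -0.1, and none passed the test. The receptor gene Fgfr3 went from 10.6 and 15.1 FPKM to 2.0 and 2.68 FPKM (-2.04 ± 0.22, adjusted p = 0.00377). Wnt falls numbered 4 without Pcgf5-/- replicate 1, 12 without wild-type replicate 1 and 5 without either other sample, and Wnt rises 0, 3, 4 and 1 without Pcgf5-/- replicate 1, wild-type replicate 1, Pcgf5-/- replicate 2 and wild-type replicate 2. FGF rises numbered 0 and 3 without Pcgf5-/- replicates 1 and 2, and 6 and 1 without wild-type replicates 1 and 2.

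**Figure D3:**
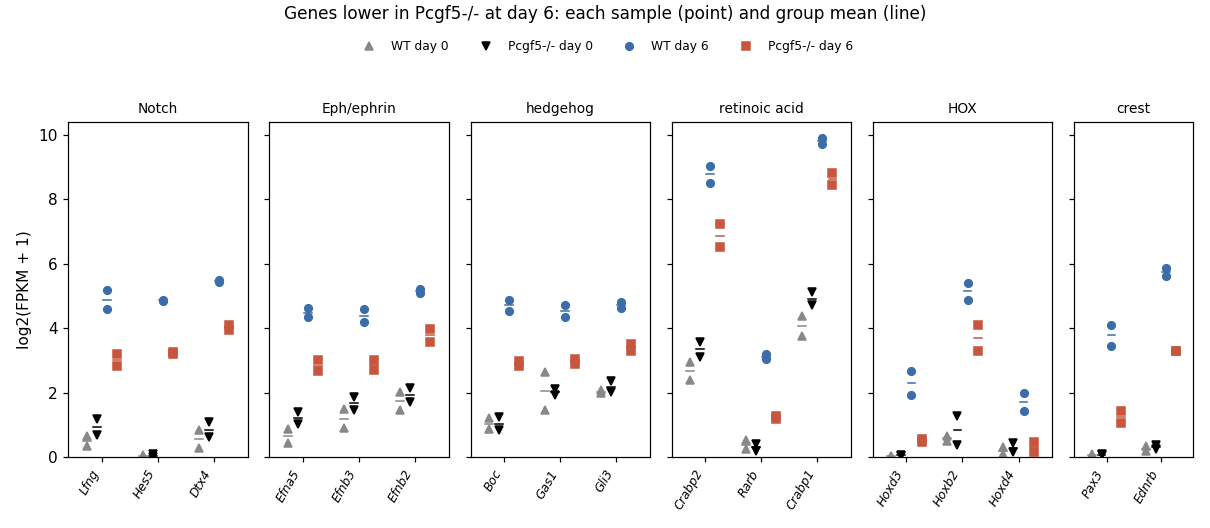
FPKM of falling genes in every sample as log2(FPKM + 1), with WT and Pcgf5-/- samples at day 0 and day 6 as points and group means as short lines. In all 17 genes both Pcgf5-/- samples at day 6 (red squares) lie below both wild-type samples at day 6 (blue circles), and above all 4 day 0 samples except for Hoxd4. The rule that named these genes required the day 6 samples of the genotypes to lie apart, as they did for 62.2% of all tested genes.

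Several cell surface and matrix groups had medians below 0. Protocadherins, cell adhesion proteins of neurons, gave 6 falls among 25 with a median of -0.45, and 24 of the 25 had a fold change below 0. Pcdh8 went from 21.4 and 27.4 FPKM to 7.8 and 5.86 FPKM (-1.7 ± 0.21), and the alpha and gamma cluster members share their 3′ exons, so their values are not independent. The count of falls was 1 without Pcgf5-/- replicate 1, 3 without Pcgf5-/- replicate 2 or wild-type replicate 1, and 5 without wild-type replicate 2. Collagens had a median of -0.6 with 2 falls among 25, Col2a1 (-1.47 ± 0.32) and Col27a1 (-0.89 ± 0.23), and the median ran from -0.94 to -0.07 over the alternatives tried. Other matrix proteins had a median of -0.49, with 3 falls and 4 rises among 46. The shares of falls, 8.0% of collagens and 6.52% of other matrix proteins, were near the 7.05% of all genes tested. The rises were led by Spp1, osteopontin, which went from 10.8 and 8.47 FPKM to 33.9 and 35.5 FPKM (1.75 ± 0.15, adjusted p = 0.00328). Beside these, the summed level of the feeder fibroblast markers was 50.4 to 62.5 FPKM in wild type and 28.7 to 31.2 FPKM in Pcgf5-/- samples, with 1 of 19 tested markers (S100a4) called lower. Their part in the matrix values was not tested.

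Among markers of other cell types, those of the neural crest had the most calls. Of 13 tested markers 6 fell and 1 rose, and the summed level of all markers on the list was 91.3 to 134 FPKM in wild type against 30.7 to 31.5 FPKM in Pcgf5-/- samples. Pax3, a dorsal neural tube and crest factor, went from 9.92 and 16.1 FPKM to 1.06 and 1.69 FPKM (-2.54 ± 0.25, adjusted p = 0.00377), and Ednrb, the endothelin receptor, from 48.5 and 58.0 FPKM to 8.75 and 8.71 FPKM (-2.47 ± 0.18). Ednrb alone made up a large part of the wild-type sums. It is also on the neural list, so the sums do not stand for the crest alone. Sox10, which defines migrating crest, did not reach the minimum level for testing, and Tfap2a, Foxd3 and Snai2 did not pass the test. Few markers of other lineages were called by limma. Of 13 tested endoderm markers 0 were called and 1 had an unadjusted p under the threshold. All 13 nevertheless had a fold change below 0, with a median of -0.81. The summed level of the endoderm list was 253 to 495 FPKM in wild type and 155 to 196 FPKM in Pcgf5-/- samples. Wild-type replicates differed for some of these markers, such as Dab2 at 30.0 and 6.5 FPKM, against 9.75 and 5.93 FPKM in the Pcgf5-/- pair. Of 9 tested trophoblast and 9 primitive streak and mesoderm markers 1 each rose, Tfap2c (1.59 ± 0.19) and Tcf15 (1.75 ± 0.48), of which the former also marks mESCs and germ cells.

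Among the named genes that belong to no group, and apart from Pcgf5 itself, the largest falls were those of Agtr1a, the angiotensin receptor, and Foxb1, a hindbrain and spinal cord factor. Agtr1a (chr13:30428225-30474736, mm9) went from 13.2 and 29.9 FPKM to 2.25 and 2.76 FPKM, a change of -2.58 ± 0.33 (adjusted p = 0.00473). Foxb1 went from 8.06 and 8.26 FPKM to 1.25 and 0.819 FPKM (-2.18 ± 0.18, adjusted p = 0.00311). Vit, Hes3, Rprm, Insl6, Frzb and 2900092D14Rik, also in no group, had fold changes of -2.08, -2.07, -1.99, -1.93, -1.92 and -2.17. Rises of this kind were those of Morc1, which silences transposons in male germ cells, at 2.51 ± 0.46, Cobl, an actin nucleator on chromosome 11, at 2.3 ± 0.24, and Irgm1 and Parp12, interferon-inducible genes not on the interferon list and on chromosomes 11 and 6, at 2.27 ± 0.49 and 2.24 ± 0.38. 2410141K09Rik and Fam25c rose by 2.4 and 2.37.

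Of the general growth machinery, DNA replication genes had a share of rises above that of all genes tested, and the other groups had shares below it. Of 30 mitosis genes limma called 0, with 5 higher at an unadjusted p under the threshold, and the median was 0.11. Cytosolic ribosomal proteins gave 3 rises among 76, all of them on chromosome 11, and replication-dependent histones, many of which lack polyA tails and are poorly caught by this library type, gave 2 rises among 64. Of 46 DNA replication genes 8 rose (17.4%, against 9.57% of all genes tested), 4 of them among the 40 outside chromosomes 6 and 11, and the median was 0.22. Without single samples the count of replication genes was 0 to 3. Mcm2, a helicase subunit on chromosome 6, went from 98.2 and 92.0 FPKM to 154 and 152 FPKM (0.68 ± 0.12). Cholesterol synthesis gave 2 rises among 28 and endoplasmic reticulum chaperones 1 among 30.

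Chromosomes 6 and 11 were higher as wholes in Pcgf5-/- cells. The median fold change was 0.37 over 643 tested genes on chromosome 6 and 0.38 over 1086 on chromosome 11, against -0.06 to 0.03 on the other chromosomes. Each of the 4 pairs of a Pcgf5-/- and a wild-type day 6 sample gave a median of 0.31 to 0.43 on chromosome 6 and 0.34 to 0.41 on chromosome 11. The same held at day 0, with medians of 0.41 and 0.48. Among genes over 10 FPKM in wild type the median ratio of FPKM was 1.35 on chromosome 6 and 1.33 on chromosome 11, and 0.946 to 1.02 elsewhere. Of the abundant members, Npm1, a nucleolar chaperone on chromosome 11, stood at 1200 and 1070 FPKM against 1590 and 1710 FPKM (0.54 ± 0.12), and Cct7, a chaperonin subunit on chromosome 6, at 167 and 154 FPKM against 228 and 259 FPKM (0.59 ± 0.12). For both genes the groups did not overlap.

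**Figure D4:**
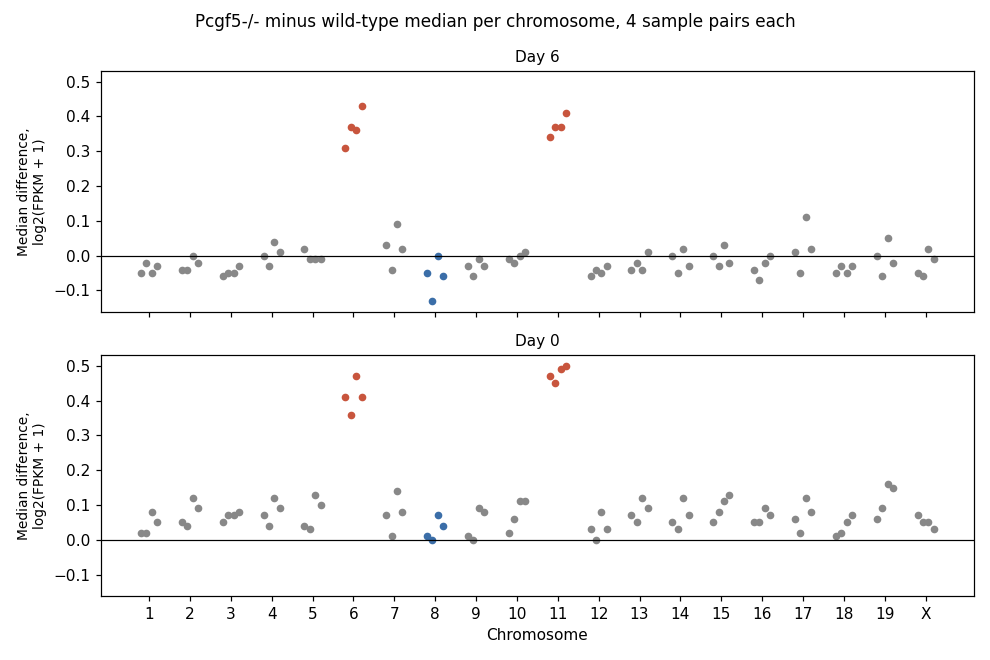
Median difference of log2(FPKM + 1) per chromosome for the 4 pairs of a Pcgf5-/- and a wild-type sample, at day 6 (top) and day 0 (bottom). Chromosomes 6 and 11 (red) lie between 0.31 and 0.43 at day 6 and apart from the rest at both days; chromosome 8 (blue) reaches down to -0.13 at day 6.

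These chromosomes held 13.1% of the tested genes but 34.5% of the rises and 3.65% of the falls. On chromosome 6, 164 genes rose and 14 fell, and on chromosome 11, 273 rose and 20 fell. Outside them 828 genes rose (7.21%) and 898 fell (7.82%), so that rises made up 57.6% of calls with the chromosomes and 48.0% without. Centring both chromosomes on their own medians before the fit gave 866 rises and 940 falls. The germline, interferon and redox groups kept most of their rises outside them, at 24 rises among 47, 20 among 42 and 18 among 51 outside. The number of copies of these chromosomes was not measured in these samples.

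A stretch of chromosome 8 went the other way. Ordered along the chromosome in runs of about 50 tested genes, the first 4 runs (208 genes, chr8:3150922-67171837, mm9) had medians of -0.59, -0.57, -0.47 and -0.21, and the remaining 513 genes of the chromosome had a median of 0.06. Of the 208 genes 59 fell and 8 rose (28.4% lower), 79.8% had a fold change below 0, and the median ratio of FPKM among those over 10 FPKM was 0.67. The 4 sample pairs gave medians of -0.46 to -0.41 at day 6 and of -0.3 to -0.15 at day 0. Leaving out every gene of the lists used here left 182 genes with a median of -0.43. Among the other runs outside chromosomes 6 and 11 the lowest medians were -0.29 and -0.27. This stretch was picked out after its values were seen and carries no test. It includes Sox1, Efnb2, Irf2, Sfrp1 and Lamp1, and Sox1, a neural plate factor, was at 50.3 and 67.9 FPKM in wild type against 22.7 and 28.3 FPKM in Pcgf5-/- cells (-1.17 ± 0.23). With chromosomes 6 and 11 and this stretch set aside, 820 genes rose and 839 fell among 11277.

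**Figure D5:**
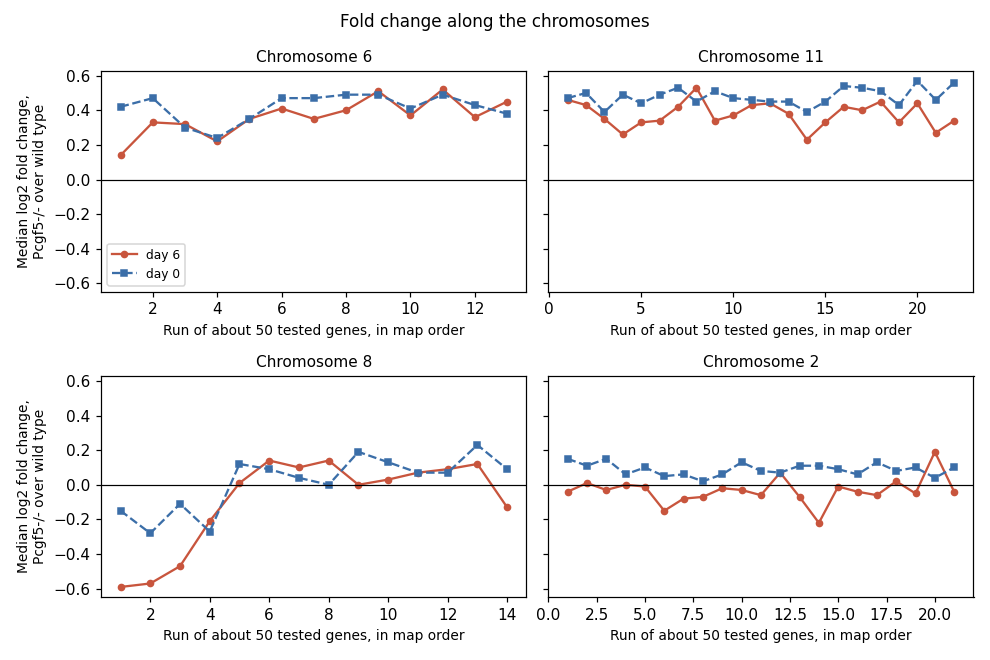
Median log2 fold change of Pcgf5-/- over wild type in consecutive runs of about 50 tested genes in map order along chromosomes 6, 11, 8 and 2, at day 6 (red circles) and day 0 (blue squares). Every run of chromosomes 6 and 11 lies above 0 at both days, the first 4 runs of chromosome 8 lie below it at both days, and those of chromosome 2 lie between -0.22 and 0.19 at day 6.

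The genotype effect at day 6 was also tested against that at day 0. In the same fit the effects differed for 408 genes, 3.09% of those tested. Hes5, Lfng, Efna5 and Efnb3, which fell at day 6, had day 0 means between 0.0258 FPKM for Hes5 in wild type and 2.21 FPKM for Efnb3 in Pcgf5-/- cells, and all 4 were among the genes whose effects differed.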

How the data were processed

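PolyA+ RNA from 8 samples had been sequenced, and the FPKM values deposited by the authors were used as given. Per the study's methods and processing notes, reads were trimmed, exact duplicates were removed, and the rest were aligned to mm9 with TopHat2 (2.0.4) and quantified per gene with Cufflinks (2.1.1). The gene annotation was not given in the sources used here. Removing duplicates lowers the values of abundant genes, FPKM keeps no read totals, and no count test was possible.

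Of 24849 loci, 13214 were tested, those whose average FPKM exceeded 1 in any of the 4 groups. Values were taken as log2(FPKM + 1), and limma (3.58.1, R 4.3.3) with a variance trend was fitted to all 8 samples with 1 mean for each group and 4 residual degrees of freedom, without a replicate block, with Benjamini-Hochberg adjustment over all tested genes and a threshold of 0.05. The script was tested on simulated data. Loci with a status of low data numbered 371, of which 43 were tested and 4 called.

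Members of the groups and all gene lists were chosen with earlier results of these data known. Named genes were Pcgf5 and the 12 largest called rises and falls outside the neural, pluripotency and TGF-beta lists. The up to 3 largest called rises and falls of each group were also named. In both cases the samples of the genotypes had to lie apart and loci to span at least 300 bp. Added were the 4 most abundant called genes of each of chromosomes 6 and 11, and Nes, Sox1, Tubb3, Pou5f1 and Nanog as a check of the label. Other genes were named after their values were seen, and some genes that the rule names are not reported here. Chromosome medians were taken over tested genes, and runs held about 50. Promoters came from RefSeq on GRCm38.p6 and were matched by symbol. Alternatives changed the pseudocount, minimum, scaling, trend, block, samples and chromosomes.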

Additional observations from a re-analysis of the deposited data

Results flagged for a closer look

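The genotype effect at day 6 differed from that at day 0 for 47 of 142 named genes. The difference itself was tested in limma with adjustment over all genes tested. Among all 13214 genes tested, the effects differed for 408 (3.09%). Most named genes were chosen for large called changes at day 6, and this choice favours such a difference. The higher share among named genes is therefore not a result in itself. Values here are the day 6 effect minus the day 0 effect on the log2(FPKM + 1) scale. No explanation was weighed for these differences.

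Of genes higher at day 6, the difference was 1.88 for Nanog, 2.29 for Zfp42, 1.82 for Klf2, 1.74 for Pecam1 and 1.49 for Tfap2c, all of which mESCs express. Defence genes with such a difference were Psmb8 at 2.21 and Pycard at 1.76. In metabolism it was 2.43 for Cox7a1, 1.83 for Nqo1, 2.18 for Slc27a2, 1.74 for Ldhb, 1.25 for Acadm and 1.22 for Gpx4. At the cell surface and in the matrix it was 1.97 for Cdh3 and 1.99 for Spp1, and it was 2.0 for the actin nucleator gene Cobl.

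Of genes lower at day 6, the neural crest and hindbrain genes gave -2.55 for Pax3, -2.52 for Ednrb and -2.16 for Foxb1. Retinoic acid and HOX genes gave -2.57 for Crabp2, -2.03 for Crabp1, -1.81 for Rarb and -1.82 for Hoxd3. Notch and ephrin genes gave -2.28 for Lfng, -1.64 for Hes5, -2.21 for Efna5 and -2.01 for Efnb3, and the related Hes3 gave -2.15. Hedgehog genes gave -1.82 for Boc and -1.47 for Gli3. Wnt and FGF genes gave -2.1 for Fzd3, -1.53 for Wnt7a, -1.95 for Frzb and -2.14 for Fgfr3. Cytoskeletal and cilia genes gave -1.95 for Mylk, -1.94 for Rfx4, -1.53 for Tubb3, -0.79 for Tubb2b and -1.35 for Nes. The remaining differences were -2.57 for Agtr1a, -2.19 for 2900092D14Rik, -2.12 for Vit, -1.87 for Zfp629, -1.82 for Cacng4, -1.82 for Pcdh8, -1.81 for Nnat and -1.67 for Irf2.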

How the results depend on the processing

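Without single day 6 samples the number of called genes was 297 to 1173, of rises 175 to 721 and of falls 122 to 452, each lowest without Pcgf5-/- replicate 1. The median of chromosome 11 was 0.35 to 0.40 and that of chromosome 6 was 0.34 to 0.41 in these fits. The fold changes of Hes1 (-0.19 to 0.06) and Irf9 (-0.11 to 0.48), neither called, changed sign among them. With a pseudocount of 0.01 the falls numbered 508 and both chromosome medians were 0.43, and with 0.1 they were 0.43 on chromosome 6 and 0.42 on chromosome 11. The cause was not tested. Without a minimum FPKM the medians were 0.14 and 0.22, a fit that adds genes near 0. The median of chromosome 11 was 0.41 with a minimum of 5, 0.42 with median centring and 0.35 with quantile normalization. Centring both chromosomes sets their medians to 0.0 by construction. Leaving them out of the fit gave 780 rises, and counting outside them and the start of chromosome 8, chosen after seeing the data, gave 820. The replicate numbers are not said to pair samples. Replicate deviations of the genotypes correlated at r = 0.387 across genes at day 6 and 0.102 at day 0, and with a replicate block 2410 genes were called, or 3235 with a replicate block for each day. Across 16 alternatives, 2854 fold changes of named genes kept their direction and side of the threshold and 677 lost the call. Group counts and medians moved beyond their limits in 472 of the cases. With 2 samples a group and unknown depth, small changes of low genes were not detectable.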

Other observations

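Imprinted genes were called in each direction, 6 higher and 6 lower among 42 tested (14.3% each). Over all genes tested 9.57% were called higher and 7.05% lower. The maternally expressed non-coding RNAs Mirg, Meg3 and Rian of one cluster on chromosome 12 rose together, Meg3 from 117 and 141 FPKM to 189 and 222 FPKM (0.67 ± 0.16). In that order their fold changes were 1.05, 0.67 and 0.58 at day 6 and already 0.52, 0.58 and 0.6 at day 0, where none passed the test. Cdkn1c, a cell cycle inhibitor, went from 38.4 and 24.0 FPKM to 11.8 and 7.53 FPKM (-1.59 ± 0.38). Nnat, a neuronal membrane protein gene, fell from 337 and 358 FPKM to 142 and 200 FPKM. Of 332 genes named Zfp, 17 rose (5.12%) and 29 fell (8.73%), a share of rises below and a share of falls near that of all genes tested. Among them were Zfp42, the mESC marker Rex1, at 33.5 and 14.1 FPKM against 98.4 and 88.1 FPKM, and Zfp629 at 11.9 and 12.3 FPKM against 3.61 and 3.71 FPKM. Without Pcgf5-/- replicate 1, limma called 1 imprinted gene higher and 0 lower, and 0 Zfp genes higher and 5 lower.

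In the cytoskeleton, 3 of 22 tubulin genes rose (13.6%) and 5 fell (22.7%). The neuronal tubulin genes Tubb3 and Tubb2b fell, the latter from 203 and 181 FPKM to 108 and 106 FPKM, and Tuba4a rose by 1.63 ± 0.29. Of 49 genes of the actin and myosin list 6 rose (12.2%) and 4 fell (8.16%). Mylk, the myosin light chain kinase, went from 12.9 and 10.9 FPKM to 2.26 and 3.52 FPKM, and Vim, vimentin, from 292 and 323 FPKM to 155 and 134 FPKM. The rises included Mylpf (1.54 ± 0.4), Actn2 (0.87 ± 0.17) and, on chromosome 11, Myl4 (1.44 ± 0.24). Rfx4 and Rfx3, regulators of cilia genes, fell by 1.87 and 1.08, whereas Rsph1, a radial spoke protein, rose by 1.39 ± 0.31. Among 63 cilia genes 4 rose (6.35%) and 5 fell (7.94%), against 9.57% and 7.05% of all genes tested. Of 39 channel genes 3 rose (7.69%) and 7 fell (17.9%), led by Kcnk5 (1.28 ± 0.26) and by Cacng4 (-1.37 ± 0.2). Of 26 immediate early genes 4 rose (15.4%) and 3 fell (11.5%). The rises were led by Klf2 (1.89 ± 0.26), which mESCs also express, and the falls were Atf3, Cyr61 and Jun. For p53 targets there were 3 rises (8.57%) and 1 fall (2.86%) among 35, and for lysosomal genes 2 and 2 among 40 (5.0% each). Integrins and laminins gave 3 rises (12.5%) and 2 falls (8.33%) among 24, and hypoxia genes 2 and 2 among 32 (6.25% each). The shares of cilia, p53 target, lysosomal and hypoxia genes were near or below those of all genes tested. Those of tubulin and immediate early genes were above them in both directions, as was the share of falling channel genes. The blood and endothelial list had 1 call among 6 tested genes, Pecam1, which mESCs also express, and the glial list 1 among 9, Aldh1l1.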
